A study of Mus musculus with 10 samples.

Results

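The regions described here are estrogen receptor α (ERα) binding sites at promoters from which protein-coding genes are transcribed in a single direction. ERα ChIP-seq, in which DNA bound by the receptor is recovered with an antibody and sequenced, had been performed on the arcuate nucleus and on the anteroventral periventricular nucleus (AVPV) of the hypothalamus, with 4 libraries of each. All 8 libraries came from ovariectomised female C57BL/6 mice that carried an estradiol implant (0.1 mg/mL), received estradiol benzoate (0.05 mg/kg) a week later and were collected 28 h after that injection, so both nuclei had the same hormone and no untreated ChIP was used here. Chromatin had been pooled, and whether each library came from a pool of its own is not given in the sources used here, so each SD and p-value describes the spread between libraries, which may be technical. Peaks of the 8 deposited lists that shared at least 1 bp were merged, and 4722 of 8072 merged regions had peaks in at least 2 libraries. Of these, 970 were chosen by their position and the annotation: the centre lay no more than 1 kb upstream or 100 bp downstream of a RefSeq start site, and every protein-coding start site within 1 kb of the centre was on the same strand. They are called one-direction promoter sites. The promoter sites with coding start sites on both strands (two-direction promoter sites, 297 regions) and the 3420 sites outside promoters are used for comparison, and 35 promoter sites had no coding start site within reach.

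ERα is a nuclear receptor that acts as a transcription factor once it has bound estradiol. It binds DNA directly at the estrogen response element, a palindrome of AGGTCA and its reverse complement, and it can also be held at DNA by other factors. In the female hypothalamus, neurons of the arcuate carry the negative feedback of estrogen on gonadotropin release and those of the AVPV the positive feedback. Most promoters of widely expressed mammalian genes lie in stretches rich in the dinucleotide CpG and lack a TATA box, and ETS family factors bind CCGGAAG in many of them.

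The requirement of peaks in at least 2 libraries decided 184 of the 970 sites, which had peaks in exactly 2. Among the 3350 regions with a peak in a single library, 580 met the same rule on position and direction and were left out. With a distance of 2 kb for the direction, 16 of the 970 sites would have had coding start sites on both strands, and with 500 bp, 44 of the two-direction sites would have had them on one. All but 3 sites had 1 protein-coding gene within 1 kb, the 970 sites belonged to 965 nearest genes, and 99 also had a noncoding start site on the other strand. There were 960 sites on autosomes and 10 on X. Peak lists held 2367 to 4079 peaks. They hold no read counts, so depth was not analysed and a site without a peak is not shown to be unbound. Fold enrichment is the ratio of ChIP signal over local background as the authors' peak caller gave it. Whether that background came from the library itself or from the pooled input of its nucleus is not given in the sources used here. In the latter case the 4 libraries of a nucleus would share it, and differences between nuclei would include those between the inputs.

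A palindrome with 1 mismatch in its 12 fixed letters was present at few of these promoters, and 5 of the 9 such sequences at sites with a peak in every library are shown, as the stronger sites whose element lies outside exons. The 15 letters of the element are in capitals, the sequence is that of the gene's strand from 5′ to 3′, and all were read from RefSeq GRCm38 (mm10). Mad2l1 lies on the plus strand at chr6:66535086-66535140, Map2k7 on the plus strand at chr8:4239155-4239209, Gpr3 on the minus strand at chr4:133213172-133213226, Mnt on the plus strand at chr11:74830579-74830633 and Micos10 on the minus strand at chr4:139131164-139131218. The windows lie upstream of the start site except at Map2k7, where the window begins 415 bp downstream of it.
Mad2l1: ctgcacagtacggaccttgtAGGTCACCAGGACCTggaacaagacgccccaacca
Map2k7: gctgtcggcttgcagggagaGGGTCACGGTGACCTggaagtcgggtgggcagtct
Gpr3: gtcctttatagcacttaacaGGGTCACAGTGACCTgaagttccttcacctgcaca
Mnt: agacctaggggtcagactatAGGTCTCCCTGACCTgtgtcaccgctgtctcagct
Micos10: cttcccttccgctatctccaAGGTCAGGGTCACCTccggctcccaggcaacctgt

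The letters CCGGAAG or their reverse complement lay within 100 bp of the summit, the position of highest signal, at far more sites than such a palindrome. Of the 323 sites with a match, 85 had the nearest one within 25 bp of the summit. The 6 sequences below show these letters in capitals together with the GC box GGGCGG. They are the sites with a peak in all 8 libraries whose lowest percentile of fold enrichment in any list was highest, among those that held CCGGAAG within 25 bp of the summit and no exon in the window, a choice made after the values were seen. Sf3a3 (chr4:124714744-124714834, plus strand) codes for a splicing factor and Fibp (chr19:5460499-5460589, plus strand) for a protein that binds fibroblast growth factor. Tsnax (chr8:125012947-125013037, plus strand) codes for the partner of translin and Sdhaf3 (chr6:6955837-6955927, plus strand) for an assembly factor of succinate dehydrogenase. Klhl20 (chr1:161131513-161131603, minus strand) codes for a ubiquitin ligase adaptor and Ccng2 (chr5:93267316-93267406, plus strand) for a cyclin.
Sf3a3: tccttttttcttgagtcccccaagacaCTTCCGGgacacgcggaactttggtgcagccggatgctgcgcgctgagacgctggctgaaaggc
Fibp: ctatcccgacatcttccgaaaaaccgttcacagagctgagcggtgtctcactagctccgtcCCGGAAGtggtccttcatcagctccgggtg
Tsnax: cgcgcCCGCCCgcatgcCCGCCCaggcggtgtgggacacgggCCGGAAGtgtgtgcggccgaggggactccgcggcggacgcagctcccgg
Sdhaf3: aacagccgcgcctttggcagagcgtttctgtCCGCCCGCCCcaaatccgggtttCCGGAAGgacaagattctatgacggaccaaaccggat
Klhl20: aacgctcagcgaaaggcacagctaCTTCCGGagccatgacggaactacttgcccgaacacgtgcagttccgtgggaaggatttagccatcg
Ccng2: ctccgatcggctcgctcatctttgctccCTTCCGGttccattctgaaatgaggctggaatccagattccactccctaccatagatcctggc

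The 5 windows that follow surround the summits of sites among the 10 strongest, ranked by their lowest percentile of fold enrichment in any list. These short windows hold no CCGGAAG and no GC box, but in the 201 bp around the summit Chordc1 had both and Cltc a GC box. They are those of Sfswap (chr5:129501056-129501101, plus strand), Cmss1 (chr16:57606925-57607015, minus strand), Fyco1 (chr9:123851964-123852046, minus strand), Cltc (chr11:86757602-86757692, minus strand) and Chordc1 (chr9:18292134-18292184, plus strand) and all lie upstream of the start site. Windows end where an exon begins, and Ddx17, Snrnp35, Pde12 and Bms1, with their summits in exons, are not printed. Of these, Snrnp35 had a GC box and Bms1 had CCGGAAG in the 201 bp around the summit. Dagla, whose short window holds a GC box, is not printed either.
Sfswap: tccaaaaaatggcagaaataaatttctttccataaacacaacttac
Cmss1: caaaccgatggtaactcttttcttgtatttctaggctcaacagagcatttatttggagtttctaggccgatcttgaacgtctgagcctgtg
Fyco1: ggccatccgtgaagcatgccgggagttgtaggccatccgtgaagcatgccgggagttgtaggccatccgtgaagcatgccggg
Cltc: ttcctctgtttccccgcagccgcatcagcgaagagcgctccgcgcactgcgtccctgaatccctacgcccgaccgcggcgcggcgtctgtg
Chordc1: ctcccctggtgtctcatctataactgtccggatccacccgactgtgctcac

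A one-direction promoter site was most often bound in both nuclei. Peaks were present in at least 2 libraries of each nucleus at 593 of the 970 sites (61.1%, 95% Wilson interval 58.0 to 64.2), against 45.3% of all 4722 regions. At 168 sites (17.3%, 15.1 to 19.8) this was so in the arcuate alone, against 32.2% of all regions, and at 127 (13.1%, 11.1 to 15.4) in the AVPV alone, against 15.4%. The remaining 82 sites had 1 library of each nucleus. Calls in at least 2 libraries chose the sites, so these shares are a description. The two-direction promoter sites gave 66.0% for both nuclei (60.4 to 71.1), and the sites outside promoters 38.9% (37.3 to 40.6). Peaks in all 8 libraries were found at 332 one-direction sites (34.2%), at 41.4% of two-direction sites and at 18.1% of sites outside promoters. The intervals cover counting error only and treat sites as separate draws.

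Individual libraries placed peaks in 584 to 777 of the sites. The arcuate libraries had 666, 699, 629 and 714 of them and the AVPV libraries 590, 595, 777 and 584, and the ranges of the nuclei overlapped because AVPV library 3 had the most. The mean was 677 ± 37.8 in the arcuate and 636 ± 93.8 in the AVPV (SD, n = 4), a difference of 40.5 sites that was -73.5 with lists of equal length and 81.1 without AVPV library 3. As a share of the list, one-direction promoter sites took 16.5%, 18.2%, 19.6% and 20.8% of the arcuate peaks and 25.1%, 23.6%, 23.7% and 19.4% of the AVPV peaks. The mean shares were 18.8% ± 1.85 and 23.0% ± 2.48 (SD, n = 4), with an overlap through AVPV library 4 alone, and differed by -4.15 percentage points, or -5.1 without AVPV library 4. Calls in these lists chose the sites, so both differences are given without a test.

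**Figure D1:**
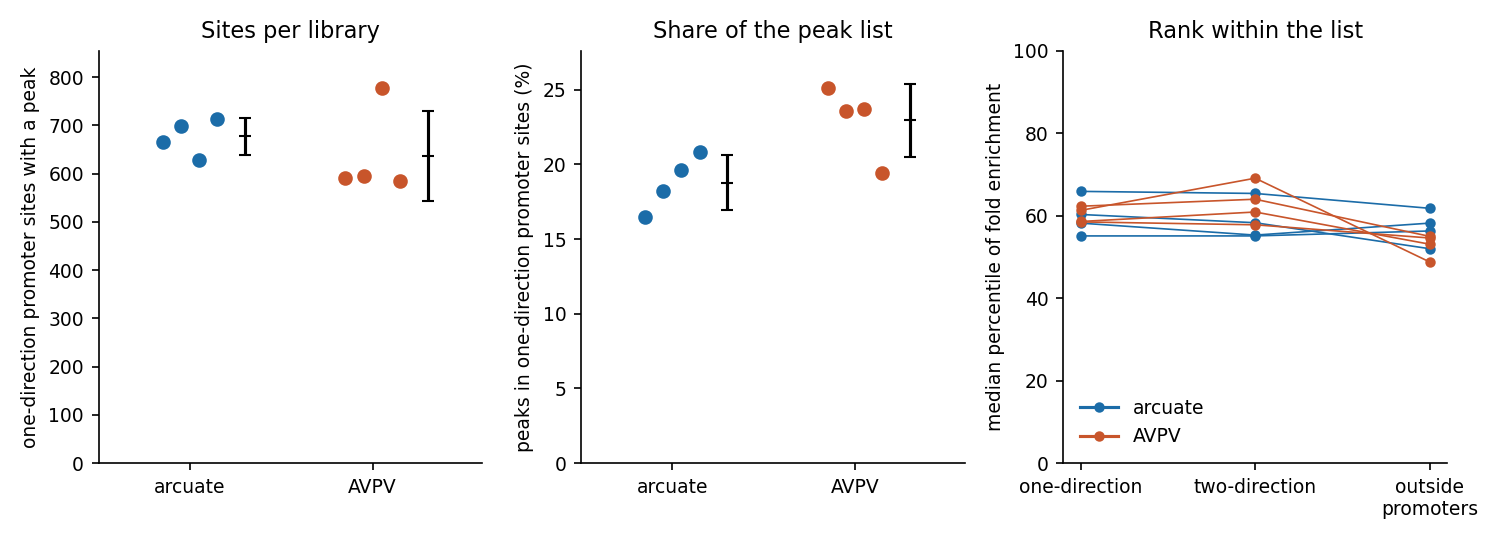
Each point is 1 library, arcuate in blue and AVPV in orange. The left panel plots the number of one-direction promoter sites with a peak and the middle panel the percentage of the library's peaks in them, both with the mean and SD of 4 libraries, and the right panel joins the values of a library in 3 classes of site, as median percentiles of fold enrichment in its list. AVPV library 3, at 777 sites, stands above the other AVPV libraries, and the one-direction medians run from 55.1 to 65.9.

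Libraries of the same nucleus shared more one-direction promoter sites than libraries of different nuclei, by a small margin. The sites called in both libraries, divided by those called in either, averaged 0.67 over the 6 pairs of arcuate libraries and 0.66 over the 6 AVPV pairs. Over the 16 pairs between nuclei the mean was 0.616, with a range from 0.579 to 0.681 that overlapped the within-nucleus range of 0.629 to 0.698. No test was made of this, since the pairs share libraries.

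Peaks at one-direction promoters were of medium strength in their lists. The median percentile of their fold enrichment among all peaks of the library was 58.2, 55.1, 60.3 and 65.9 in the arcuate and 61.3, 58.6, 62.3 and 58.5 in the AVPV, where 50 would be the middle of the list. The list includes peaks of regions called in a single library, which none of the compared classes of site includes. The difference between the nuclei was -0.296 percentiles (exact permutation test, two-sided, p = 0.914, the smallest p that 4 against 4 libraries allow being 0.0286), and the ranges overlapped. Two-direction promoter peaks had medians from 55.1 to 69.1. The difference between the classes within a library averaged -0.71 ± 3.33 percentiles (SD, n = 8 libraries), below zero in 3 of 8 libraries (exact sign-flip permutation test, p = 0.688). The 3 were AVPV libraries 1 to 3, and the mean was 1.35 in the arcuate and -2.77 in the AVPV, which did not pass as a difference between the nuclei (exact permutation test, p = 0.0857). It was larger when weak peaks were left out, -3.58 percentiles with −log10 q of at least 5 (exact sign-flip permutation test, p = 0.0156) and -4.2 with fold enrichment above 5 (exact, p = 0.00781). Against sites outside promoters, whose medians ran from 48.8 to 61.8, the one-direction sites ranked 5.05 ± 4.44 percentiles higher and did so in 6 of 8 libraries (exact sign-flip permutation test, p = 0.0312). This difference failed the correction over 9 tests (adjusted p = 0.0703). It was 9 with −log10 q of at least 5, 9.86 with lists of equal length and 10.6 with fold enrichment above 5 (exact sign-flip permutation test, p = 0.00781 in each). Leaving out any of arcuate libraries 3 and 4 or AVPV libraries 1 to 4 raised the unadjusted exact p to 0.0625, with differences from 4.52 to 5.4.

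The peaks were also wider than those away from promoters. Their median width was 327 to 371 bp in the 8 libraries, against 358 to 428 bp at two-direction promoters and 272 to 307 bp outside promoters, and the 3 ranges overlapped only between the promoter classes.

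Seen from the annotation, a gene with a one-direction promoter was bound less often than a gene that shares its promoter with a divergent neighbour. RefSeq gives 18939 protein-coding genes with all coding start sites within 1 kb on one strand and 2061 with start sites on both. A peak summit lay within the promoter of 4.16%, 4.14%, 3.92% and 4.58% of the one-direction genes in the arcuate libraries and of 3.62%, 3.61%, 5.15% and 3.63% in the AVPV libraries. The two-direction genes gave 15.8% to 23.0%. The difference was -14.5 ± 2.09 percentage points (SD, n = 8), in the same direction in 8 of 8 libraries (exact sign-flip permutation test, p = 0.00781, the smallest that 8 libraries allow, and adjusted p = 0.0234). A peak between a divergent pair counts for both of its genes, which the percentages of genes include. It averaged -14.8 points in the arcuate and -14.2 in the AVPV, and the difference between these did not pass (exact permutation test, p = 0.743). Of the one-direction genes, 960 (5.07%) held at least 1 of the 970 sites. This share was 9.41% for genes with a CpG-rich promoter, as defined below, and 0.91% for the others. One-direction and two-direction genes were not matched for CpG content, and its part in their difference was not tested.

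Summits clustered just upstream of the start site. The strongest summit of a site lay at a median of -65.5 bp from the nearest coding start site, where negative values are upstream, with quartiles at -156 and 31 bp. It was upstream at 658 of 970 sites (67.8%, 64.8 to 70.7), within 50 bp of the start site at 237 (24.4%) and more than 250 bp upstream at 126 (13.0%). The rule admits centres up to 1 kb upstream but only 100 bp downstream, so it set the share on each side in part. The sites with peaks in all 8 libraries had quartiles of -133 and -0.75 bp around a median of -72 bp, and those with peaks in 2 or 3 libraries had -201 and 51.5 bp around -63 bp.

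**Figure D2:**
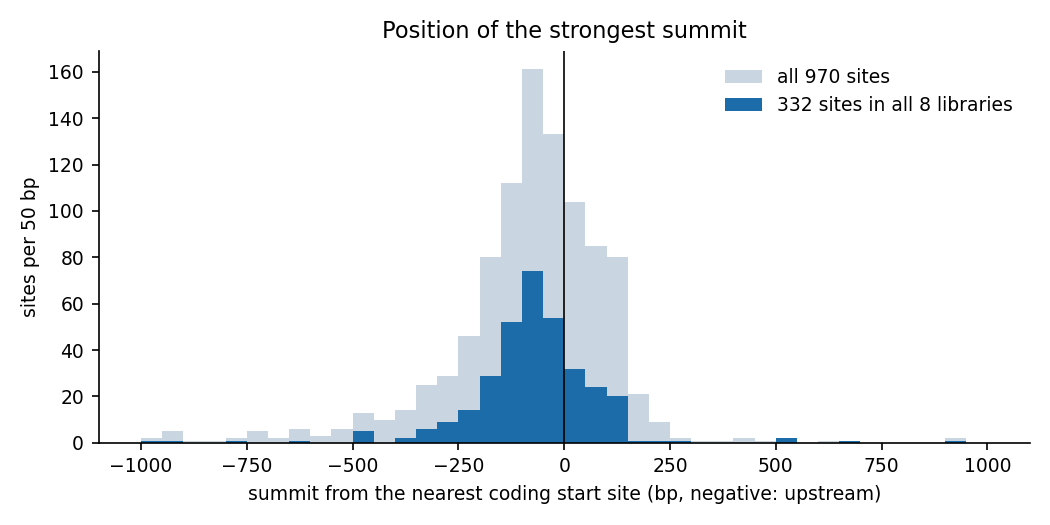
Number of one-direction promoter sites per 50 bp, by the distance of the strongest summit from the nearest coding start site in bp, for all 970 sites and for the 332 with peaks in all 8 libraries. Both distributions peak within 100 bp upstream of the start site. Of all 970 summits, 126 (13.0%) lie more than 250 bp upstream and 13 (1.34%) more than 250 bp downstream.

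Most of the sites lay at CpG-rich promoters. In 501 bp around the summit, the median GC content was 61.1% (quartiles 56.5 and 66.3) and the median ratio of observed to expected CpG was 0.821. The same window at 23299 start sites of one-direction genes, placed at the median summit position, had 56.5% GC and a CpG ratio of 0.554, the two-direction promoter sites had 62.1% and 0.843, and the sites outside promoters 47.1% and 0.224. A GC content above 50% together with a CpG ratio above 0.6, called CpG-rich here, was met by 850 of the 970 sites (87.6%, 85.4 to 89.6), by 45.3% of all one-direction promoters and by 15.3% of sites outside promoters. In terms of genes, 870 of 9243 with a CpG-rich one-direction promoter held a site (9.41%), against 88 of 9666 others (0.91%). Sites called in the arcuate alone had a median GC content of 64.6% and those called in the AVPV alone 60.1%. No test was made between these, since sites are not replicates of a nucleus.

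The response element was rare at one-direction promoters in each library, and its share of peaks was above that at two-direction promoters. A palindrome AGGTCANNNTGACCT with at most 2 mismatches lay within 100 bp of the summit of 4.45%, 4.96%, 4.86% and 3.88% of the one-direction peaks in the arcuate and of 3.70%, 3.99%, 3.28% and 4.38% in the AVPV. The ranges of the nuclei overlapped, and the difference of 0.697 percentage points did not pass (exact permutation test, p = 0.114, adjusted p = 0.171). In two-direction promoter peaks the share was 0.943% to 1.98%, lower in 8 of 8 libraries by 2.69 ± 0.497 points (SD, n = 8, exact sign-flip permutation test, p = 0.00781, adjusted p = 0.0234). Outside promoters it was 43.0% to 51.6%, higher in 8 of 8 libraries, with a difference of -44.1 ± 3.12 points for the one-direction sites (exact sign-flip permutation test, p = 0.00781, adjusted p = 0.0234). The libraries share most of their sites, so the 8 differences are not 8 separate draws of sites. Counted once per site, 33 of 970 one-direction sites held an element (3.4%, 2.43 to 4.74), against 0.76% of 23299 one-direction promoters. The share was 1.68% of two-direction sites (5 of 297, 0.721 to 3.88) and 47.0% of sites outside promoters. The intervals of one-direction and two-direction sites overlapped. With at most 1 mismatch, an element lay at 1.34% of one-direction sites and at 0.0558% of all one-direction promoters. The 201 bp windows of promoters lay at the median summit position and those of sites at the summit itself. The part of this in the difference from promoters was not tested. A perfect palindrome was found at 0 of the 970 sites, a share of up to 0.394% by the Wilson interval. A single arm of the palindrome, AGGTCA, counted on both strands and also where it was part of a palindrome, lay in 9.28% of the sites and in 9.61% of all one-direction promoters.

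CCGGAAG, searched on both strands in the same window, lay at 323 of the 970 sites (33.3%, 30.4 to 36.3). Two-direction sites had it at 34.7% (29.5 to 40.3), sites outside promoters at 4.65% and all one-direction promoters at 8.34% (7.99 to 8.70). Base composition moved with this difference. Within CpG-rich windows it was 35.2% of 850 sites (32.0 to 38.4) and 14.7% of 10543 one-direction promoters (14.1 to 15.4), and 12.4% of the 9516 that belonged to genes without a site. The windows of sites are centred on a measured summit and those of promoters on a fixed position, and the part of this in the difference was not tested. The share was 26.1%, 24.3%, 28.6%, 32.6%, 26.9% and 33.3% at sites with peaks in 2 to 7 libraries and 43.1% at those with peaks in all 8. It was 25.0% at sites called in the arcuate alone, 22.8% in the AVPV alone and 38.3% in both nuclei. The 402 matches at the 323 sites were in the gene's direction 203 times and against it 199 times, and the match nearest to the summit lay at a median of 46 bp from it and of -24 bp from the start site.

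Most other promoter letters were as frequent or less frequent at the sites than at promoters. The GC box GGGCGG lay in 43.6% of the sites (40.5 to 46.7) and in 42.1% of all one-direction promoters, but in 46.5% of CpG-rich sites against 71.2% of CpG-rich promoters. The CCAAT box lay in 16.6% (14.4 to 19.1) against 29.6% of all promoters, the TATA box TATAAA in 2.89% against 8.75% and the AP-1 letters TGANTCA in 2.68% against 4.95%. Within CpG-rich windows these shares were 15.4% against 29.1%, 1.53% against 3.19% and 2.35% against 2.09%. The YY1 letters AAGATGGCG lay in 1.96% of the sites and 1.07% of all promoters, and in 2% and 2.08% of the CpG-rich ones. AP-1 letters were present in 7.98% of sites outside promoters. These motifs were searched on both strands, and matches of different motifs may share letters. Here too the windows of sites are centred on the summit and those of promoters on a fixed position from the start site. The part of this in the differences was not tested, also for letters such as the TATA box that tend to keep a set distance from the start site. CCGGAAG and a GC box were both present at 150 sites, and neither at 374.

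**Figure D3:**
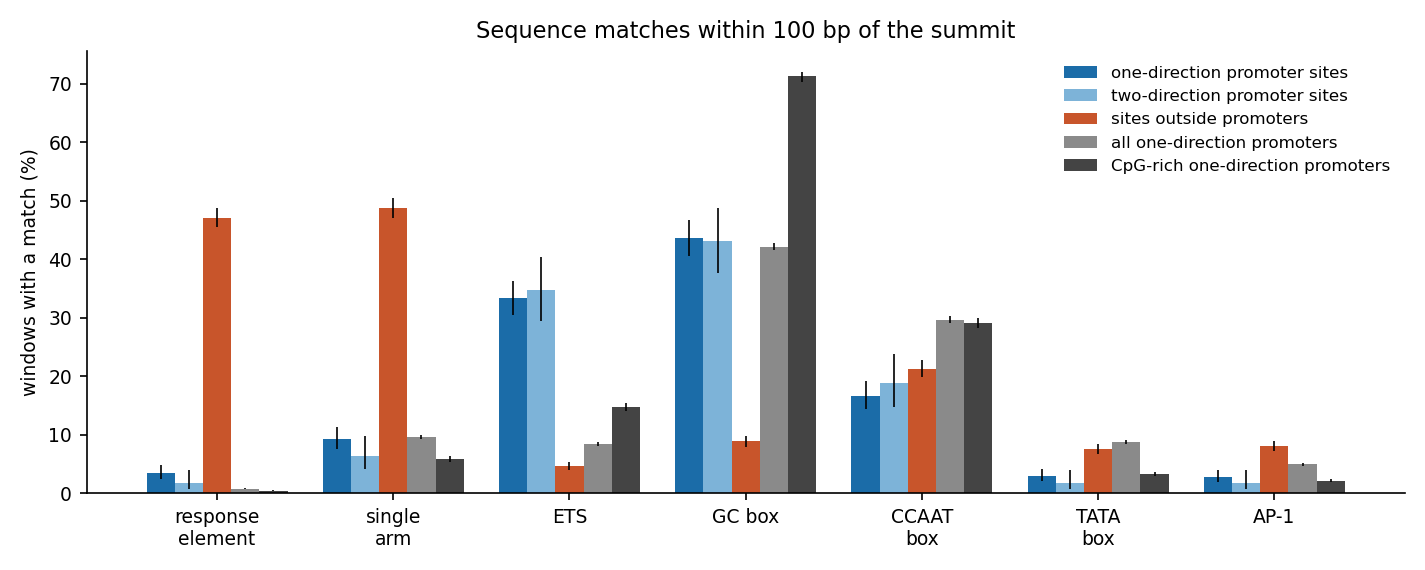
Percentage of 201 bp windows with at least 1 match, with 95% Wilson intervals, for 7 sets of letters in one-direction and two-direction promoter sites, sites outside promoters, all one-direction promoters and the CpG-rich ones among them. The response element is at 3.4% of one-direction sites and 47.0% of sites outside promoters, and the ETS letters CCGGAAG at 33.3% and 4.65%.

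The 33 one-direction sites with a response element included 13 with 1 mismatch and 20 with 2. The element was upstream of the start site at 29 of them, at a median of -252 bp, and at a median of 30 bp from the summit. Peaks were present in all 8 libraries at 16 of the 33, among them 9 of the 13 with 1 mismatch, and 9 of the 33 also held CCGGAAG. Ranked by the lowest percentile in any list, the first of those with 1 mismatch was Gad2, which codes for an enzyme of GABA synthesis in inhibitory neurons. Its site on chromosome 2, from 22621541 to 22622635, had fold enrichments of 20.3, 18.1, 16.8 and 20.9 in the arcuate and 18.5, 22.5, 27.8 and 25.0 in the AVPV, and its lowest percentile was 94.6. The nuclei overlapped, and their log2 difference, arcuate minus AVPV, was -0.30 (limma, adjusted p = 0.172). The element itself lies in an exon, 351 bp upstream of the nearest start site.

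Sites with an element printed above covered a wide range of strength. Mad2l1, a spindle checkpoint gene, had fold enrichments of 20.2, 20.2, 19.7 and 23.4 in the arcuate and 15.9, 14.5, 18.4 and 23.2 in the AVPV. Map2k7, which codes for a kinase upstream of JNK, had 30.9, 21.4, 23.2 and 28.0 against 15.1, 19.8, 22.5 and 19.2. At both sites the ranges overlapped, and neither difference passed (limma, adjusted p = 0.358 and 0.0554). Gpr3, a receptor that raises cAMP, ranged from 6.72 to 9.57 over the 8 libraries and Mnt, a repressor that pairs with Max, from 6.36 to 9.17. Micos10, a gene of the mitochondrial inner membrane, had 8.24, 6.54, 5.89 and 5.41 in the arcuate and 11.1, 9.19, 12.5 and 12.1 in the AVPV, without overlap, and was higher in the AVPV by a log2 difference of -0.80 ± 0.21 (SE, limma, adjusted p = 0.00534). On the percentile scale its adjusted p was 0.0594.

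By the lowest percentile in any list, the strongest one-direction promoter site was that of Ddx17, which codes for an RNA helicase known as a coactivator of ERα. On chromosome 15, from 79546204 to 79547423, its fold enrichment was 69.5, 70.2, 60.3 and 79.4 in the arcuate and 65.2, 66.2, 73.9 and 60.2 in the AVPV. The values overlapped, and the log2 difference was 0.06 ± 0.11 (SE, limma, adjusted p = 0.741). Its lowest percentile was 99.9. Sfswap, a regulator of splicing on chromosome 5 from 129500255 to 129502259, had 63.9, 65.1, 65.5 and 76.1 against 51.5, 51.2, 44.5 and 49.5. The arcuate was higher without overlap, by 0.45 ± 0.12 on the log2 scale (limma, adjusted p = 0.00741), a call lost without AVPV library 3 (adjusted p = 0.0577) and on the percentile scale (adjusted p = 0.594), where both nuclei are at the top of the list.

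The other 8 of the 10 strongest sites by this rank, which is not the rank by mean fold enrichment, belonged to genes of varied function. Cmss1, a protein of the small ribosomal subunit pathway, ranged from 34.6 to 48.8 over the 8 libraries. Snrnp35, a component of the minor spliceosome, ranged from 35.6 to 52.6 and Bms1, a GTPase of ribosome assembly, from 26.9 to 37.0. Dagla, which makes an endocannabinoid in neurons, ranged from 30.7 to 41.3, Fyco1, an adaptor of autophagosome transport, from 29.2 to 38.9, and Chordc1, a co-chaperone, from 27.1 to 45.9. None of these 6 passed between the nuclei. Higher in the AVPV without overlap were Cltc, the clathrin heavy chain, with 27.2, 25.5, 31.5 and 31.2 against 40.3, 42.8, 46.3 and 38.9 (log2 difference -0.56 ± 0.14, limma, adjusted p = 0.00388), and Pde12, a mitochondrial phosphodiesterase, with 27.2 to 33.7 against 40.2 to 46.3 (-0.48 ± 0.13, adjusted p = 0.00895). On the percentile scale neither passed, at adjusted p of 0.0802 and 0.213. A percentile cannot rise much further near the top of a list.

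Fold enrichment could be compared between the nuclei at the 332 one-direction sites with a peak in all 8 libraries, within a limma fit over all 1089 such regions. It was higher in the arcuate at 23 sites and higher in the AVPV at 40, which is 6.93% and 12% of the 332. Over all 1089 regions, 11.0% were higher in the arcuate and 10.7% in the AVPV. The median log2 difference was -0.088 at the one-direction sites and 0.056 at the other regions, after each library had been centred on its median. On the percentile scale 16 sites were higher in each nucleus, 31 of these 32 being among the 63 and in the same direction. Of all 1089 regions, 91 were then higher in the arcuate and 41 in the AVPV, and the median difference in percentiles was 0.427 at the one-direction sites and 3.34 at the other regions.

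The largest differences towards the arcuate were at genes with unlike functions. Ebag9, an estrogen-responsive gene whose name records its receptor-binding site, had fold enrichments of 13.6, 12.1, 13.0 and 17.7 in the arcuate and 3.52, 7.31, 10.5 and 7.18 in the AVPV. The nuclei did not overlap, and the log2 difference was 1.06 ± 0.23 (SE, limma, adjusted p = 0.00125). Its site also held a palindrome with 1 mismatch, centred 62 bp upstream of the start site. Tsnax had 31.0, 30.3, 29.0 and 36.9 against 13.0, 12.3, 18.4 and 18.8, a difference of 1.04 ± 0.16 (adjusted p = 1.43e-05). Spred1, an inhibitor of the Ras and MAP kinase pathway on chromosome 2 from 117120403 to 117121215, had 17.4, 16.4, 21.5 and 29.9 against 8.09, 11.1, 12.5 and 9.16 (1.03 ± 0.20, adjusted p = 0.000257). Mrps31, of the mitochondrial ribosome, and Cops7a, a subunit of the COP9 signalosome, differed by 0.88 ± 0.21 and 0.78 ± 0.22 (adjusted p = 0.00296 and 0.00896), without overlap at either. Ebag9 and Cops7a did not pass on the percentile scale (adjusted p = 0.0945 and 0.065).

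Towards the AVPV the differences were slightly larger. At Tmem101, a membrane protein on chromosome 11 from 102156054 to 102156676, fold enrichment was 7.36, 5.30, 4.98 and 4.52 in the arcuate and 13.3, 11.3, 16 and 16.2 in the AVPV. The ranges did not overlap, and the log2 difference was -1.38 ± 0.21 (SE, limma, adjusted p = 1.02e-05). Trp53rka, a kinase that acts on p53, had 7.07, 4.69, 6.15 and 6.44 against 14.4, 11.6, 17.2 and 13.3 (-1.23 ± 0.21, adjusted p = 4.23e-05). Dhx33, an RNA helicase, and Eif4g2, a translation initiation factor, followed at -1.13 ± 0.22 and -1.05 ± 0.20 (adjusted p = 0.000281 and 0.000156). Eif4g2 had 9.06, 9.27, 11.5 and 10.2 in the arcuate and 24.1, 17.7, 28.1 and 14.9 in the AVPV. Cfap20, a gene of cilia, differed by -1.15 ± 0.25 (adjusted p = 0.000934), but its highest arcuate value of 9.18, in library 4, was above its lowest AVPV value of 9.15. All 5 were called in the same direction under every alternative in which they were tested, as were Tsnax, Spred1 and Mrps31.

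**Figure D4:**
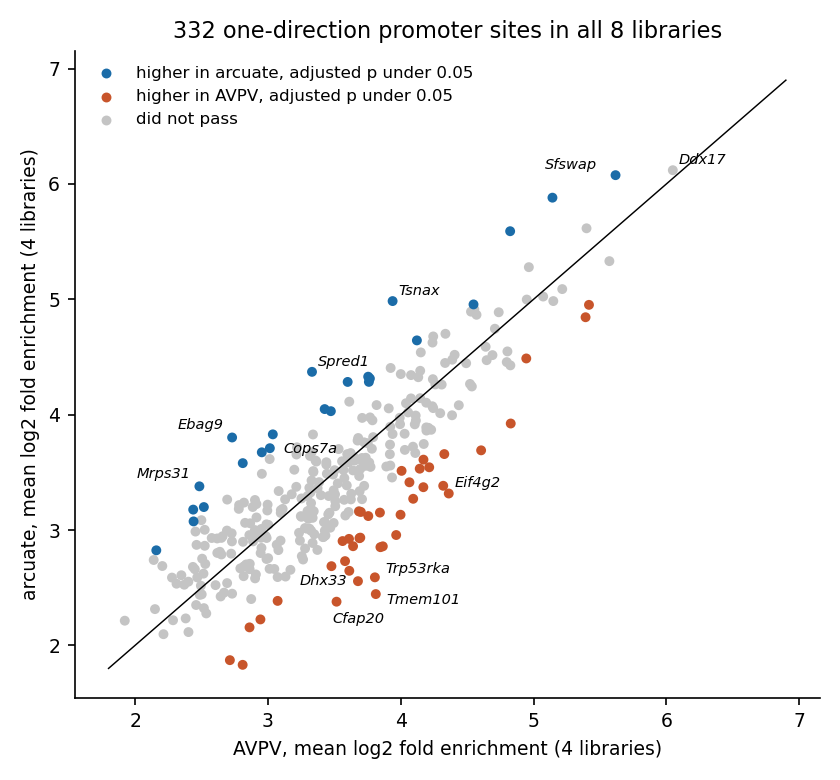
Each point is 1 of 332 one-direction promoter sites with a peak in all 8 libraries, at the mean log2 fold enrichment of the 4 AVPV libraries (horizontal) and the 4 arcuate libraries (vertical), before centring, with the line of equality. The 23 sites called higher in the arcuate are blue, the 40 called higher in the AVPV orange, and Ddx17 lies on the line at the top right.

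Few one-direction sites were called in every library of one nucleus and in none of the other. There were 11 such sites for the arcuate, 1.13% of the 970 against 3.64% of all 4722 regions, and 4 for the AVPV, 0.412% against 1.40%. With 3 libraries enough on one side the total of 15 became 32 without arcuate library 1, 24 without arcuate library 3, 28 without arcuate library 4 and 25 without AVPV library 3. Klhl38, a Kelch-like gene on chromosome 15 from 58324171 to 58324586, had fold enrichments of 8.98, 9.28, 8.57 and 5.99 in the arcuate and is the one of the 5 strongest with a response element, of 2 mismatches. It lacks the CpG-rich sequence of most of these promoters, with a CpG ratio of 0.288. Aqp5, a water channel gene, had 6.27, 7.57, 6.44 and 6.48, Rsad1, a gene of the radical SAM family, 5.65 to 7.70, and Dnaja4, a co-chaperone, 5.64 to 7.57. Endov, a nuclease gene, had 5.11 to 7.49. In the AVPV alone, Mettl5, which codes for an rRNA methyltransferase, had 7.32, 6.36, 7.20 and 6.53 and Samd12 had 6.99, 7.23, 6.26 and 6.24. Lrrc61 ranged from 4.83 to 6.83 and the zinc finger gene Zfp260 from 4.26 to 8.09. These values are of medium rank, and the lowest percentile was 53.1 at most.

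In 6 lists of housekeeping genes, 13.2% to 23.7% of the genes with a one-direction promoter held a site, beside 5.07% of all such genes. Among 72 cytosolic ribosomal protein genes with a one-direction promoter, 13 had a site (18.1%, Wilson interval 10.9 to 28.5), 8 of them in all 8 libraries. The strongest was Rpl37, with 29.0, 28.0, 30.2 and 33.7 in the arcuate and 17.2, 21.9, 31.1 and 26.0 in the AVPV, which overlapped (limma, adjusted p = 0.102). Rps26 had 7.95, 7.86, 6.79 and 7.40 against 11.6, 10.5, 12.2 and 13.1, and was higher in the AVPV without overlap by -0.67 ± 0.20 on the log2 scale (limma, adjusted p = 0.0146, 0.0509 without arcuate library 3 and 0.0991 on the percentile scale). Rps7 and Rpl30 did not pass (adjusted p = 0.0796 and 0.695). The share of all genes includes many promoters poor in CpG, and against the 9.41% of genes with a CpG-rich promoter the ribosomal genes with such a promoter had 12 of 61.

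Heat shock proteins and co-chaperones had the highest share, 14 of 59 genes (23.7%, 14.7 to 36.0), of which Hspa9 alone had peaks in all 8 libraries. Hspa9, the mitochondrial Hsp70, had 3.44, 3.89, 3.22 and 3.72 in the arcuate and 7.19, 8.35, 7.23 and 5.57 in the AVPV, without overlap, and a log2 difference of -0.99 ± 0.21 (limma, adjusted p = 0.00101). Its arcuate peaks were near the bottom of their lists, at percentiles of 2.34 to 8.14, against 36.7 to 71 in the AVPV. Hspa9 could be tested in 19 alternatives and was called in each. Hspa4 had 7 libraries with 4.45 to 8.14, Hspa13, a chaperone of the microsomes, 7 with 3.52 to 12 and Dnajc15 7 with 4.78 to 8.47. Oxidative phosphorylation genes had 11 of 63 (17.5%, 10 to 28.6), led by Ndufa12 of complex I with 7.94 to 11.9 over the 8 libraries. Ndufaf1 and Ndufs7 also had peaks in all 8, from 4.65 to 8.37 and from 3.95 to 5.48, and none of the 3 passed between the nuclei. Cox5b of cytochrome oxidase had peaks in 6.

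Translation factors had 8 of 57 genes (14%, 7.29 to 25.3), 5 of them in all 8 libraries. Eif2s3x on X had 14.5 to 21.9 and Eif4e2 13.1 to 18.8 over the 8 libraries, and neither passed between the nuclei. Eif3f had 12.1, 9.46, 9.20 and 6.13 in the arcuate and 12.7, 12.4, 15.0 and 11.6 in the AVPV (limma, adjusted p = 0.057). Splicing factors had 8 of 47 (17.0%, 8.89 to 30.1), with Sf3a3 at 15.4 to 20.1, Srsf7 at 6.52 to 12.9 and Hnrnpf and Sf3b2 in 6 libraries each. Proteasome genes had 5 of 38 (13.2%, 5.75 to 27.3). Psmg1, an assembly chaperone of the proteasome, had 8.10, 11.1, 9.43 and 7.55 against 13.9, 11.0, 13.2 and 13.6 and was at the threshold (limma, adjusted p = 0.0497), passing in 9 of 22 alternatives. Psmf1, an inhibitor of the proteasome, had 12.6 to 16.2 against 8.19 to 12, without overlap (adjusted p = 0.0729), and Psmd2 and Psme3 had peaks in 6 and 4 libraries.

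Zinc finger genes of the Zfp series had 38 of 371 (10.2%, 7.55 to 13.7), 27 of them among the 204 with a CpG-rich promoter. Zfp384 had 16.2 to 22.6, Zfp959 11.1 to 20.4, Zfp433 10.2 to 18.8 and Zfp119a 7.80 to 12.2 over the 8 libraries, and none passed between the nuclei. Zfp959 and Zfp119a are neighbours on chromosome 17, on opposite strands, and both summits lay 140 bp downstream of the start site. Such genes have similar copies, and how reads matching several places were treated is not given in the sources used here, so their separate values are uncertain.

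Lists tied to estrogen, signalling or neuronal activity held few sites in number, at shares of 2.17% to 13.0% beside 5.07% of all genes. Of 23 classic estrogen targets, 3 had a one-direction promoter site (13.0%, 4.54 to 32.1). Nrip1, a corepressor of nuclear receptors, had 5.64 to 9.38 and Fkbp4, a co-chaperone of steroid receptors, 5.26 to 9.38 over the 8 libraries, and neither passed between the nuclei. The Fkbp4 summit lay 907 bp downstream of the nearest coding start site. At Fkbp4 and Nrip1 the region centre lay 837 and 243 bp downstream of that site, beyond the 100 bp allowed. Both regions therefore met the rule through another RefSeq start site. So did the named sites of Map2k7, Pde12, Hnrnpf and Endov, with centres 457, 315, 267 and 118 bp downstream of the nearest coding start site. Ctsd, the protease cathepsin D, had peaks in 5. Receptor coregulators had 3 of 29, which were Ddx17, Nrip1 and Rbm39, the last with 5.41 in arcuate library 4 and 5.95 in AVPV library 3. Immediate early genes had 1 of 31, Fosl2, whose 5 peaks of 4.11 to 10.1 lay 975 bp upstream of its start site. The 46 nuclear receptor genes had 1, Nr1h2, a receptor for oxysterols, with 5.99 to 13.5 over the 8 libraries. Clock genes had 2 of 19, Tef in 7 libraries at 4.08 to 8.30 and Cry2 in 5 at 4.32 to 6.84. The Ras and MAP kinase pathway had 2 of 27, Spred1 and the kinase gene Map2k1, with 8.06 to 14.3, an element of 2 mismatches and no difference that passed (limma, adjusted p = 0.431). Synaptic vesicle genes had 2 of 33, Slc17a6, the vesicular glutamate transporter, in 4 libraries at 4.11 to 8.98 and Napa in 2. The intervals of these 7 lists all include 5.07%. With a CpG-rich promoter, where 9.41% of all genes held a site, counts were 1 of 29 for immediate early and for nuclear receptor genes. They were 1 of 23 for synaptic vesicle genes, 2 of 27 for the Ras and MAP kinase pathway and 2 of 16 for clock genes. Classic estrogen targets had 3 of 16 and coregulators 3 of 26. No test was made of these counts.

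**Figure D5:**
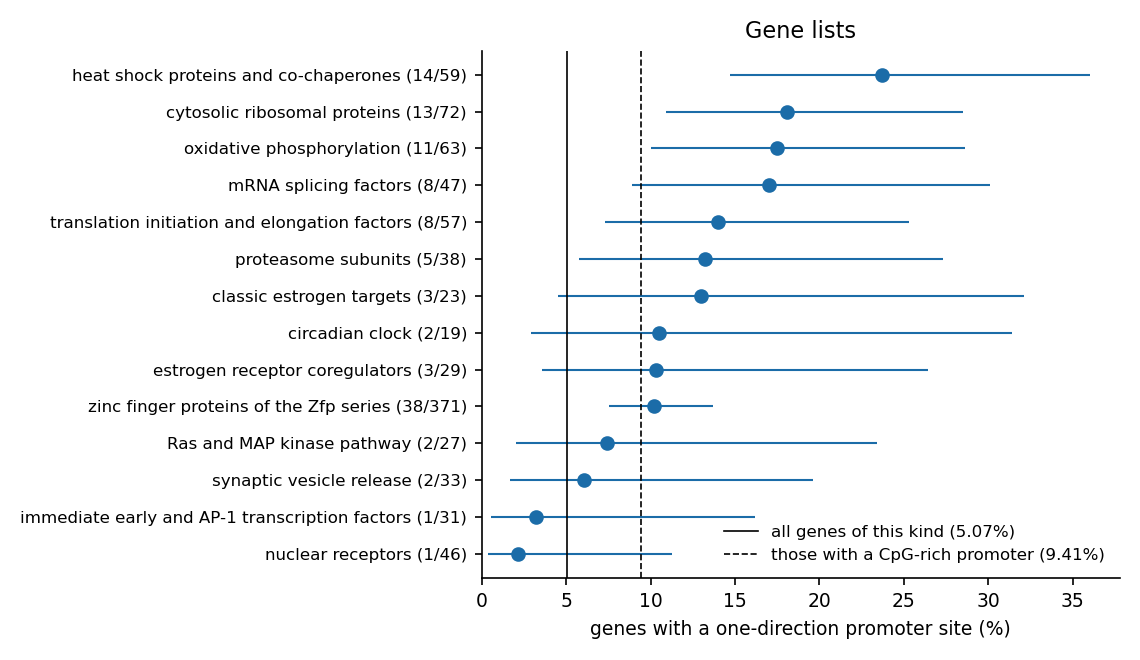
Percentage of the genes of each list, among those with a one-direction promoter, that held a one-direction promoter site, with 95% Wilson intervals and the number of genes in brackets. The solid line is the 5.07% of all genes of this kind and the dashed line the 9.41% of those with a CpG-rich promoter. The points count all genes with a one-direction promoter, not the CpG-rich ones alone. The lower bound lies above 9.41% for heat shock proteins, ribosomal proteins and oxidative phosphorylation. The intervals of translation factors, splicing factors and the proteasome include 9.41%. The lists were chosen with earlier results of these data known, so this is a description.

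Markers of the cell types in these tissues held 1 such site, in lists too short to be told from the 5.07% of all genes, since their intervals reach 32.4% to 51.3%. None of the markers of neurons (8 genes), astrocytes (6), oligodendrocytes (7), microglia (5), endothelium (4) or tanycytes and ependyma (4) had one at its promoter, nor had the 7 genes of the preoptic area and AVPV. Of the 7 arcuate genes, Ghrh, which codes for growth hormone-releasing hormone, had a site with 5.39 in arcuate library 1 and 6.18 in AVPV library 4, so its calls did not separate the nuclei. Peak lists give no expression, and the labelled nuclei could not be checked from them.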

How the data were processed

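ERα ChIP-seq peak lists of 4 arcuate and 4 AVPV libraries were analysed, grouped by the sample titles. The authors aligned 75-nt single-end reads to mm10 with Bowtie2 2.5.0 and called peaks per library with MACS2 2.2.7.1, per the study's methods and the submitters' processing notes. The threshold, and whether the pooled input served as control, are not given in the sources used here, and the smallest deposited −log10 q was 1.31. The deposited fold enrichment is a ratio over local background, and the deposited −log10 p-value and q-value are those of the summit. The deposited score, a multiple of −log10 q, was not used.

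Regions, start sites (45756 NM and NR transcripts of RefSeq GRCm38.p6) and classes were defined as given above. The strongest peak of a region was used per library, and percentiles are ranks within a list. Exact two-sided permutation tests used 1 value per library, and 9 tests were adjusted by Benjamini-Hochberg, of which those on numbers and shares of calls are given as values only. Fold enrichment was tested as centred log2 values with limma 3.58.1 (R 4.3.3) with trend and Benjamini-Hochberg adjustment. In simulated data with 200 of 1089 regions changed by a log2 difference of 1, 186 were recovered with 7 false calls. Wilson intervals are at 95%. Python 3.11.15, pandas and pysam were used.

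The sites, gene lists and motifs were chosen with earlier results of these data known, so no list is independent support. Named sites were the 10 strongest in all libraries by lowest percentile, up to 5 of the largest called differences and of the strongest sites called in all libraries of one nucleus and none of the other, in each direction, up to 4 per gene list, and the 6 with the closest response elements. Alternatives were the number of libraries, the overlap, stricter thresholds, equal list lengths, the promoter window, the direction distance, limits on the element, the scale and centring, leaving out each library and a replicate block. A planned restriction to NM and NR transcripts was already the main setting, and all RefSeq models were added after the data were seen. RNA-seq and other experiments of the study were not analysed here. The sequence of 1 further site is not reported here.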

Additional observations from a re-analysis of the deposited data

Results flagged for a closer look

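In groups of 4 libraries, 15 of 149 held a value whose gap to its nearest neighbour exceeded Dixon's 95% limit, and chance alone flags about 1 in 20 groups. AVPV library 3 had the most one-direction promoter sites of its nucleus (777), the most one-direction genes with a peak (976) and the highest percentage of such genes (5.15). AVPV library 1 had the highest median fold enrichment at one-direction sites (7.21) and at two-direction sites (8.23), with the shortest list of 2367 peaks. Single sites were apart in 1 library each. Fold enrichment was highest of the 4 arcuate libraries at Sfswap in library 4 (76.1), at Mad2l1 in library 4 (23.4), at Ndufa12 in library 3 (11.7), at Dhx33 in library 1 (8.39) and at Aqp5 in library 2 (7.57). It was lowest of the 4 at Sf3a3 in library 2 (15.9), at Fyco1 in library 3 (29.2) and at Dnaja4 in library 1 (5.64). In the AVPV it was highest at Fkbp4 in library 3 (7.97) and lowest at Tef in library 1 (4.08).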

How the results depend on the processing

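Of 221 alternatives to the 11 results, 196 kept the direction and the side of the threshold or stayed within 1.5 times a count. The differences of one-direction from two-direction promoters in bound genes and in response elements, and from other sites in response elements, kept both under all of theirs. The number of sites per library became -73.5 with lists of equal length and ran from 23.3 to 81.1 with a library left out. The share of peaks was -4.21 points with at least 4 of 8 libraries and -5.1 to -3.33 with a library left out. The percentile between nuclei was 0.0578 and 0.712 with at least 3 and 4 libraries and 0.628 with lists of equal length, and -2.69 to 0.43 with a library left out. One-direction minus two-direction percentiles were -3.58 with −log10 q of at least 5, -4.2 with fold enrichment above 5, -3.61 with equal lists and -2.75 with the promoter from 500 bp upstream to 500 bp downstream, and -1.81 to 0.37 with a library left out, positive without AVPV library 1. Against other sites the value was 9 to 10.6 without weak peaks or with equal lists, 3.35 with at least 4 libraries (exact permutation p = 0.141) and 4.52 to 6.07 with a library left out, where fewer libraries raise the smallest p. The response element difference between nuclei was -0.0299 with at most 1 mismatch. Sites called in every library of one nucleus and none of the other numbered 17 to 32 with a library left out, which needs fewer calls. Sites differing in fold enrichment numbered 32 on the percentile scale and 48 to 69 with a library left out. For the other changes the cause was not tested.

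The replicate block gave 60 such sites, 59 of them among the 63 in the same direction. Psmg1 was lost (limma, adjusted p = 0.0652), and the comparisons of percentile and response elements between nuclei stayed short of the threshold (exact permutation p = 1 and 0.25). Deviations of same-numbered libraries correlated at 0.10, -0.013, 0.049 and -0.31, and 1 of 4 arcuate libraries correlated best with its own number. The labels do not say whether the numbers pair the libraries. This check cannot decide it, since libraries collected together need not deviate together. Depth limits cannot be given, since the lists hold no counts.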
